A study of Mus musculus with 12 samples.

Results

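The 10 genes described here, of 55401 in the table, encode the microfibrils that scaffold elastic fibres and the latent TGF-β binding proteins (LTBPs) that store TGF-β on them. They were chosen by name as Ltbp1, Ltbp2, Ltbp3, Ltbp4, Fbn1, Fbn2, Eln, Fbln5, Fbln2 and Mfap5. Levels are given as FPKM, fragments scaled for transcript length and library depth, and 8 of the 10 genes reached an FPKM of 1 in 3 or more of the 12 libraries and were tested. These 8 were above that minimum in every library of every group, so none passed only through a group where it was high. Fbn2 and Eln did not pass.

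TGF-β is secreted bound to its own propeptide, which keeps it inactive, and LTBP-1, -3 and -4 can join this latent complex by a disulfide bond and carry it into the matrix. LTBP-2 resembles the other LTBPs and fibrillin in its repeats but does not bind latent TGF-β. Fibrillin-1, the product of Fbn1, forms the microfibril backbone to which LTBPs, the fibulins and the small glycoprotein MAGP-2, encoded by Mfap5, attach, and elastin is deposited on that backbone and crosslinked by lysyl oxidases.

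The cells were bone marrow mesenchymal stem cells (MSCs) of C57BL/6 mice, bought from a commercial supplier as 1 source of cells, and the study asked how supernatants of myeloid-derived suppressor cells (MDSCs) alter their TGF-β1-driven myofibroblastic differentiation. The 4 groups, each of 3 mRNA libraries, were untreated MSCs, MSCs given TGF-β1 at 5 ng/mL, and MSCs given TGF-β1 with supernatant of monocytic (M-MDSC) or of granulocytic (G-MDSC) cells, which had been induced from bone marrow cells with GM-CSF and IL-6 and sorted. The sources used here do not state whether replicates were separate cultures, so p-values measure the spread between these libraries. No group was given a supernatant without TGF-β1, or TGF-β1 with MDSC medium that had held no cells, so products of the MDSCs and the medium itself cannot be told apart.

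The libraries held 73977669 to 84565450 counts. Acta2, the smooth muscle actin gene that marks myofibroblasts, had 1528 ± 93.3 FPKM in untreated MSCs and 2123 ± 47.4 with TGF-β1 (SD, n = 3), a log2 fold change of 0.53 ± 0.053 (SE; adjusted p = 1.81e-05, edgeR quasi-likelihood test with Benjamini-Hochberg adjustment over 12016 genes). It had 1594.5 ± 74.6 FPKM with M-MDSC and 1516 ± 72.2 FPKM with G-MDSC supernatant, both added to TGF-β1. Of 7 bone marrow MSC markers, 5 had a mean of at least 1 FPKM in untreated cells and 6 in each other group, while Kit and Pecam1, which the MSCs should lack, together stayed at or under 0.218 FPKM in every library. The levels of these markers moved in both directions with TGF-β1: Itgb1, Cd44 and Pdgfrb rose (log2 fold changes 0.66, 0.48 and 0.52), Ly6a, which encodes Sca-1, fell from 245 to 16.2 FPKM, Thy1 fell from 4.49 to 2.16 FPKM (adjusted p of the 5 at most 0.00347, edgeR), Nt5e had means of 0.407 and 1.00 FPKM and passed the FPKM minimum only where it was high, and Eng was not tested. Ly6a had 92.5 FPKM with M-MDSC and 66.9 FPKM with G-MDSC supernatant. Pdgfrb went the other way, from 44.7 FPKM with TGF-β1 alone to 38.4 and 34.2 FPKM, as did Thy1, to 1.72 and 1.55 FPKM. Itgb1 (385 FPKM with TGF-β1 alone) had 382 and 375 FPKM, and Cd44 (53.0 FPKM) had 52.0 and 57.5 FPKM. Nt5e, at 1.28 and 1.65 FPKM, and Eng, at 0.724 and 0.891 FPKM against 0.683 FPKM, had higher means. Markers of another tissue moved with the supernatants: the summed level of 4 kidney tubule genes (Kap, Umod, Slc34a1 and Lrp2) was at most 0.0911 FPKM without supernatant, with 3 of the 4 at 0 in all of those libraries, against 10.9 to 75.5 FPKM with M-MDSC and 41.1 to 54.9 FPKM with G-MDSC supernatant. The summed level of 11 myeloid and MDSC genes, mostly Cd14, was 26.9 to 27.9 FPKM in untreated MSCs, 13.6 to 15.8 with TGF-β1, 20.5 to 25.9 with M-MDSC and 25.8 to 29.3 with G-MDSC supernatant. Within that list the leukocyte genes Ptprc and Itgam were under 0.1 FPKM in every library. Lyz2, a gene of myeloid cells, had 0 to 0.191 FPKM without it and 0.651 to 2.29 FPKM with it, and S100a9, another, was at 0 without it and had 0.98, 0.258 and 0.49 FPKM with M-MDSC and 0, 0 and 3.4 FPKM with G-MDSC supernatant, the last value from a single library. Ly6g and Ly6c2, genes of the MDSC sort markers Ly-6G and Ly-6C, had means of 1.83 and 1.71 FPKM in untreated MSCs and at most 0.211 FPKM in the other groups. Their part in the results below was not tested.

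Because the question is how a TGF-β stimulus acts on TGF-β's own carriers, the sequences before the start sites of LTBP genes are shown for the sequence CAGAC, the core that Smad3, a transcription factor of the TGF-β pathway, binds (capitals, either strand). They are RefSeq promoters on build GRCm38.p6, which had entries for 7 of the 10 genes at 11 start sites. Ltbp1 has a pair of start sites, and the Ltbp2 sequence stops short of its start site because an annotated exon of the gene overlaps the rest. One of 3 Ltbp4 start sites is shown, and its sequence holds no CAGAC.
Ltbp2, 250 to 42 bases before the start site, chr12:84876533-84876741, minus strand: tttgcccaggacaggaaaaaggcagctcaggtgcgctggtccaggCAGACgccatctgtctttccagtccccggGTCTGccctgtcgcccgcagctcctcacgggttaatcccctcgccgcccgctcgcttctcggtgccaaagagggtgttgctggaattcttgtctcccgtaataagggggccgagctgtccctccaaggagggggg
Ltbp1, first start site, 250 to 1 bases before, chr17:75005279-75005528, plus strand: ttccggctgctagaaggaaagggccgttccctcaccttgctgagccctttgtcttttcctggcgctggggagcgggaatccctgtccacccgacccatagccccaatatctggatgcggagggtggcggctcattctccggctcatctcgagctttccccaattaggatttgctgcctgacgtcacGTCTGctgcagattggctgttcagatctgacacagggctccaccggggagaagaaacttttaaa
Ltbp1, second start site, 250 to 1 bases before, chr17:75178531-75178780, plus strand: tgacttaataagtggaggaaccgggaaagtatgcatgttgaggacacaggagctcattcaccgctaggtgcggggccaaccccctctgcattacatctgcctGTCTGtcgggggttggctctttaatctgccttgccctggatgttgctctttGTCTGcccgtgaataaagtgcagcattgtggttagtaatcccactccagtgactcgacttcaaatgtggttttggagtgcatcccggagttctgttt
Ltbp3, 250 to 1 bases before, chr19:5740650-5740899, plus strand: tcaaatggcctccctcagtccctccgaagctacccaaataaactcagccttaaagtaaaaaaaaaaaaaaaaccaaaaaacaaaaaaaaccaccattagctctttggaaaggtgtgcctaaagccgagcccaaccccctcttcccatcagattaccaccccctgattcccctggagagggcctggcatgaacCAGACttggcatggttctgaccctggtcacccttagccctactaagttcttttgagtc
Ltbp4, 250 to 1 bases before, chr7:27333664-27333913, minus strand: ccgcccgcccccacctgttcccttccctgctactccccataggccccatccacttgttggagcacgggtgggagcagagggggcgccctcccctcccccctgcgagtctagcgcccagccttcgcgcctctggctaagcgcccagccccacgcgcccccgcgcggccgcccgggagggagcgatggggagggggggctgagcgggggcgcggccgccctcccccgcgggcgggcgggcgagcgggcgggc
Within the full windows, 250 bases before to 50 after a start site, CAGAC was found in 6 of the 11: both of Ltbp1, that of Ltbp2 and of Ltbp3, and both of Fbln5. It was not found in the windows of Ltbp4, Fbn1 or Fbln2. Of 32851 RefSeq promoter windows of the same length, 49.6% held it on either strand, so its presence is common, and it was found before genes that rose, fell or did not pass the test with TGF-β1. The match is a description of letters and not a binding site.

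TGF-β1 changed the members in both directions: relative to untreated MSCs, Ltbp2, Fbn1 and Fbln2 rose, Mfap5 and Fbln5 fell, and Ltbp1, Ltbp3 and Ltbp4 did not pass the test. Thus 5 of the 8 tested members were called at adjusted p under 0.05, 3 higher and 2 lower, where 34% of all 12016 tested genes were called, 16.1% higher and 17.9% lower (1929 and 2153 genes; limma on log2(FPKM + 1) called 1477 and 2725). The median log2 fold change of the 8 was -0.091, beside 0.00048 for all tested genes. Under the study's own rule, a fold above 2 or below 0.5 with unadjusted p under 0.05, 2 members were called, both higher, against 6.74% of tested genes. In bulk libraries, fewer cells that express a gene and less of its RNA per cell cannot be told apart.

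Ltbp2 (ENSMUSG00000002020, chr12:84783212-84876532, minus strand, GRCm38) had the largest log2 fold change of the tested members. Its level was 13.9, 11.5 and 11.2 FPKM in the 3 untreated libraries and 45.6, 43.6 and 43.9 FPKM with TGF-β1. The lowest treated library was thus far above the highest untreated one, and the counts behind the values in all 12 libraries were 8196 to 33496. The log2 fold change was 1.92 ± 0.096 (SE), 3.78-fold, with adjusted p = 9.84e-08 (edgeR). D030025P21Rik, transcribed from the opposite strand, shares 764 of the 8184 exonic bases of Ltbp2 and had 0.488 to 1.67 FPKM, and whether the counting used strand is not given in the sources used here.

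The carriers of latent TGF-β stayed close to their untreated level. Ltbp1 (ENSMUSG00000001870, chr17:75005568-75392512, plus strand) had 45.7, 45.4 and 43.4 FPKM without treatment and 41, 40.1 and 39.5 FPKM with TGF-β1. Its groups did not overlap, but on the count scale the log2 fold change was -0.10 ± 0.038 with adjusted p = 0.0696 (edgeR). Of 21 alternatives, 3 called it lower. Ltbp3 (ENSMUSG00000024940, chr19:5740904-5758532, plus strand) had 42.3, 45 and 41.6 FPKM without and 39.6, 37.7 and 39.3 FPKM with TGF-β1. The log2 fold change of Ltbp3 was -0.09 ± 0.055 (adjusted p = 0.256, edgeR). Ltbp4 (ENSMUSG00000040488, chr7:27305136-27337692, minus strand) was the lowest of the 4 LTBP genes in untreated cells, at 9.23, 10.1 and 9.77 FPKM, and had 8.95, 9.17 and 8.08 FPKM with TGF-β1. For Ltbp4 the difference was -0.09 ± 0.071 on the log2 scale (adjusted p = 0.361, edgeR). All 8 tested members had groups that did not overlap in FPKM in this comparison, as had 46.7% of tested genes, and the FPKM scale lies lower in the TGF-β1 group: its median log2 difference over all genes was -0.044 on log2(FPKM + 1).

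Among the structural genes, Fbn1 (ENSMUSG00000027204, chr2:125300594-125507993, minus strand) rose from 9.29, 7.74 and 7.56 FPKM to 18.3, 17.3 and 16.7 FPKM. Its log2 fold change was 1.15 ± 0.103, 2.22-fold (adjusted p = 8.38e-06, edgeR). Gm9913 on the opposite strand shares 2442 of its 12128 exonic bases but had only 3 to 29 counts, beside 8222 to 19974 for Fbn1. Mfap5 (ENSMUSG00000030116, chr6:122505845-122528766, plus strand), whose protein binds fibrillin microfibrils, moved the other way, from 5.43, 6.43 and 6.16 FPKM to 3.03, 2.95 and 3.32 FPKM. It fell by 0.90 ± 0.125 on the log2 scale (adjusted p = 0.000236, edgeR). The ratio of Fbn1 to Mfap5 FPKM was accordingly 1.38 ± 0.285 in untreated MSCs and 5.65 ± 0.539 with TGF-β1 (SD, n = 3).

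The fibulins, which bridge microfibrils, elastin and the cell, also parted. Fbln2 (ENSMUSG00000064080, chr6:91212455-91272540, plus strand) had the highest level of all members, with 273, 296 and 273 FPKM in untreated MSCs and 446, 446 and 447 FPKM with TGF-β1. It rose by 0.73 ± 0.035 on the log2 scale, 1.65-fold (adjusted p = 8.07e-08, edgeR). Fbln5 (ENSMUSG00000021186, chr12:101746565-101819055, minus strand), whose protein binds elastin and integrins and is needed for elastic fibre assembly in mice, had 10.3, 11.4 and 10.8 FPKM without and 8.38, 8.11 and 8.21 FPKM with TGF-β1. It fell by 0.34 ± 0.118 on the log2 scale with adjusted p = 0.0496 (edgeR), just inside the threshold, and 12 of 21 alternative settings, with adjusted p up to 0.125, did not call it. Fbln2 made up 67.6% ± 0.798 of the summed FPKM of the 10 members in untreated MSCs and 73.5% ± 0.404 with TGF-β1 (SD, n = 3).

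**Figure D1:**
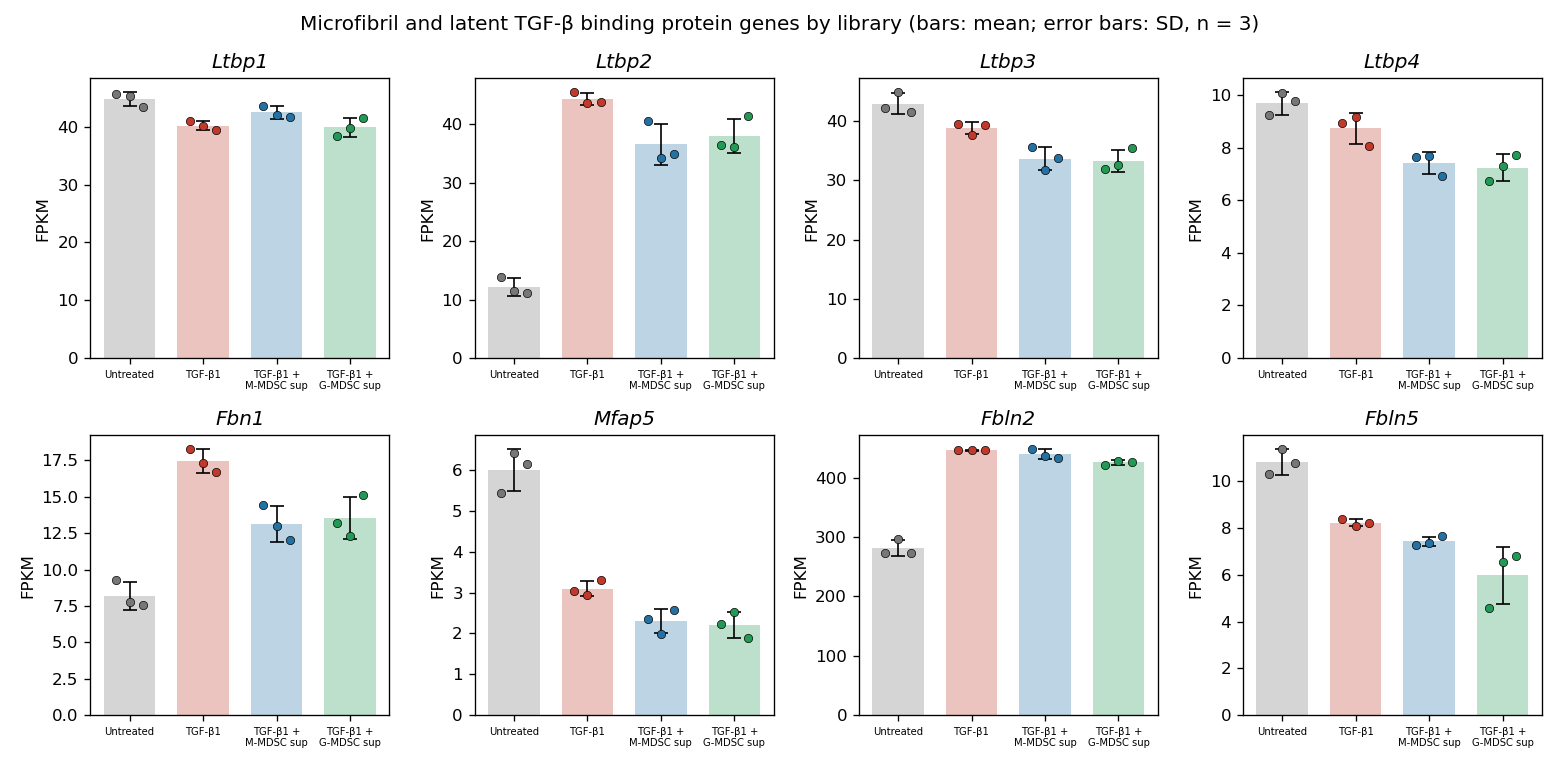
FPKM of the 8 tested members in each library (points), with the group mean (bar) and SD (error bar, n = 3), for the 4 groups; each axis starts at 0 and has its own range. Ltbp2, Fbn1 and Fbln2 stand higher with TGF-β1 than without, Mfap5 and Fbln5 lower, and the LTBP-1, -3 and -4 genes differ by little.

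Elastin transcripts were nearly absent from these cells. Eln had 0, 0 and 4 counts in untreated MSCs, 0, 12 and 47 with TGF-β1, 6, 0 and 8 with M-MDSC and 10, 0 and 18 with G-MDSC supernatant, which is at most 0.0639 FPKM. The groups overlap, and in an edgeR fit without the FPKM filter Eln had an adjusted p of 0.303 for TGF-β1 against untreated. Fbn2, the fibrillin best known from development, had 4 counts in 1 TGF-β1 library and 0 in the other 11. A count of 0 in a library of this depth does not show that a gene was silent, and no fold is given for either gene.

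Added up, the 4 LTBP genes had 109.7 ± 3.27 FPKM in untreated MSCs and 132.2 ± 2.60 FPKM with TGF-β1 (SD, n = 3), and Ltbp2 was the only one of the 4 with a higher mean in the second. The share of Ltbp2 in that sum was 11.1% ± 1.22 in untreated MSCs and 33.6% ± 0.162 with TGF-β1, while the shares of Ltbp1 (40.9% and 30.4%), Ltbp3 (39.2% and 29.4%) and Ltbp4 (8.84% and 6.61%) were lower with TGF-β1. The 3 genes whose products carry latent TGF-β summed to 97.5 ± 2.86 FPKM without and 87.8 ± 1.54 FPKM with TGF-β1. Over the same groups the 3 TGF-β ligand genes, Tgfb1, Tgfb2 and Tgfb3, summed to 15.7 ± 0.587 and 32.1 ± 2.85 FPKM. The ratio of carrier to ligand transcripts was therefore 6.21 ± 0.157 without and 2.75 ± 0.254 with TGF-β1, with no overlap between libraries. With supernatant the ratio was 2.99 ± 0.270 (M-MDSC) and 2.92 ± 0.300 (G-MDSC), which overlapped the TGF-β1 libraries. The LTBP sum was 120.2 ± 6.43 FPKM with M-MDSC and 118.5 ± 6.73 FPKM with G-MDSC supernatant, and the share of Ltbp2 in it was 30.4% ± 1.25 and 32.1% ± 0.807. These sums describe transcript levels and were not tested.

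**Figure D2:**
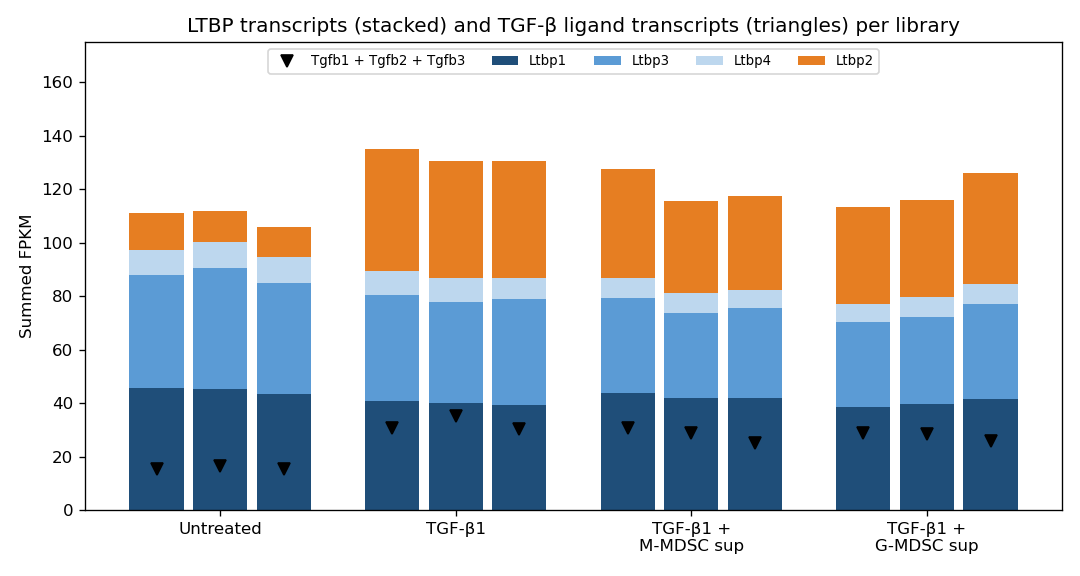
Summed FPKM of the 4 LTBP genes in each library, stacked by gene, with the summed FPKM of Tgfb1, Tgfb2 and Tgfb3 as a triangle; libraries are grouped by treatment. Ltbp2 is 11.1% of the stack in untreated MSCs and 33.6% with TGF-β1, and the ligand sum is 15.7 and 32.1 FPKM in those groups.

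With M-MDSC supernatant added to TGF-β1, Fbn1 and Ltbp3 were called lower than with TGF-β1 alone, and no member was called higher. Fbn1 had 14.4, 13 and 12 FPKM, all under the TGF-β1 libraries and above the untreated ones, and fell by 0.43 ± 0.101 on the log2 scale (adjusted p = 0.0353, edgeR). Ltbp3 had 35.6, 31.7 and 33.8 FPKM and fell by 0.23 ± 0.055 (adjusted p = 0.0424, edgeR), which places it below untreated MSCs as well. Thus 2 of 8 were called, beside 4.78% of tested genes called and 1.95% called lower. Ltbp2 (40.6, 34.2 and 35 FPKM; log2 fold change -0.30 ± 0.093), Ltbp4 (7.64, 7.7 and 6.94 FPKM; -0.26 ± 0.071) and Mfap5 (2.36, 1.98 and 2.57 FPKM; -0.45 ± 0.125) had groups that did not overlap but adjusted p of 0.118, 0.0805 and 0.0815 (edgeR). Ltbp1 (43.7, 42 and 41.8 FPKM), Fbln2 (449, 437 and 433 FPKM) and Fbln5 (7.27, 7.36 and 7.66 FPKM) had adjusted p of 0.501 to 0.603. In all, 7 of 8 members had groups that did not overlap, beside 24% of tested genes: Ltbp1 lay higher (13.4% of tested genes did) and the other 6 lower (10.6%). The median log2 fold change was -0.24, beside -0.013 for all tested genes. Under the study's rule 0 members were called, beside 2.18% of tested genes.

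The M-MDSC calls were near the threshold: 16 of 21 alternatives did not call Ltbp3 (adjusted p up to 0.141), with a replicate block among them, and 9 did not call Fbn1 (up to 0.130). Over the 21 alternatives 0 to 5 members were called, 5 with DESeq2, and none without any 1 of the TGF-β1 libraries, without M-MDSC replicate 2 or 3, or without G-MDSC replicate 1. Without M-MDSC replicate 3, the library with the highest kidney tubule sum, Fbn1 was at -0.37 (adjusted p = 0.130, edgeR) and Ltbp3 at -0.23 (adjusted p = 0.118, edgeR).

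With G-MDSC supernatant added to TGF-β1, Ltbp3, Ltbp4, Fbln5 and Mfap5 were called lower than with TGF-β1 alone, and none higher. Ltbp3 had 32, 32.6 and 35.5 FPKM and fell by 0.25 ± 0.055 on the log2 scale (adjusted p = 0.0251, edgeR). Ltbp4 had 6.72, 7.31 and 7.71 FPKM and fell by 0.30 ± 0.071 (adjusted p = 0.0376, edgeR). Fbln5, at 4.59, 6.55 and 6.8 FPKM, was lower in every library than with TGF-β1 alone but spread widely, since replicate 1 lay well below the others. It fell by 0.49 ± 0.119 (adjusted p = 0.0386, edgeR), and by 0.33 without that replicate (adjusted p = 0.00852, edgeR), though 12 of 21 alternatives, with adjusted p up to 0.169, did not call it. Mfap5 had 2.22, 2.53 and 1.88 FPKM and fell by 0.51 ± 0.125 (adjusted p = 0.0394, edgeR). Of the 21 alternatives, 15 did not call Mfap5 (adjusted p up to 0.151), 14 did not call Ltbp4 (up to 0.142) and 7 did not call Ltbp3 (up to 0.107), and the calls of these 3 genes were lost with the replicate number as a block. These 4 of 8 stand beside 5.56% of tested genes called and 2.46% called lower (372 genes called higher and 296 lower; limma on log2(FPKM + 1) called 458 and 216).

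Fbn1, at 13.2, 12.3 and 15.1 FPKM, narrowly missed the threshold with -0.39 ± 0.101 (adjusted p = 0.0511, edgeR), and 7 of 21 alternatives called it. For Ltbp2, with 36.4, 36.2 and 41.5 FPKM, the log2 fold change was -0.25 ± 0.093 (adjusted p = 0.184, edgeR). Fbln2 (422, 429 and 427 FPKM) and Ltbp1 (38.4, 39.8 and 41.5 FPKM) had log2 fold changes of -0.09 and -0.04. All members but Ltbp1, 7 of 8, had groups that did not overlap and lay lower, beside 22.7% of tested genes that did not overlap and 9.55% that lay lower. The median log2 fold change was -0.27, beside -0.014 for all tested genes. The study's rule called 0 members, beside 2.17% of tested genes. Over the 21 alternatives 0 to 5 members were called, with 0 when TGF-β1 replicate 1 or 2 was left out, 1 without TGF-β1 replicate 3, G-MDSC replicate 1 or 2 or untreated replicate 2 or 3, and 2 without M-MDSC replicate 1 or 2 or untreated replicate 1. No alternative turned the direction of a member in either supernatant comparison.

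**Figure D3:**
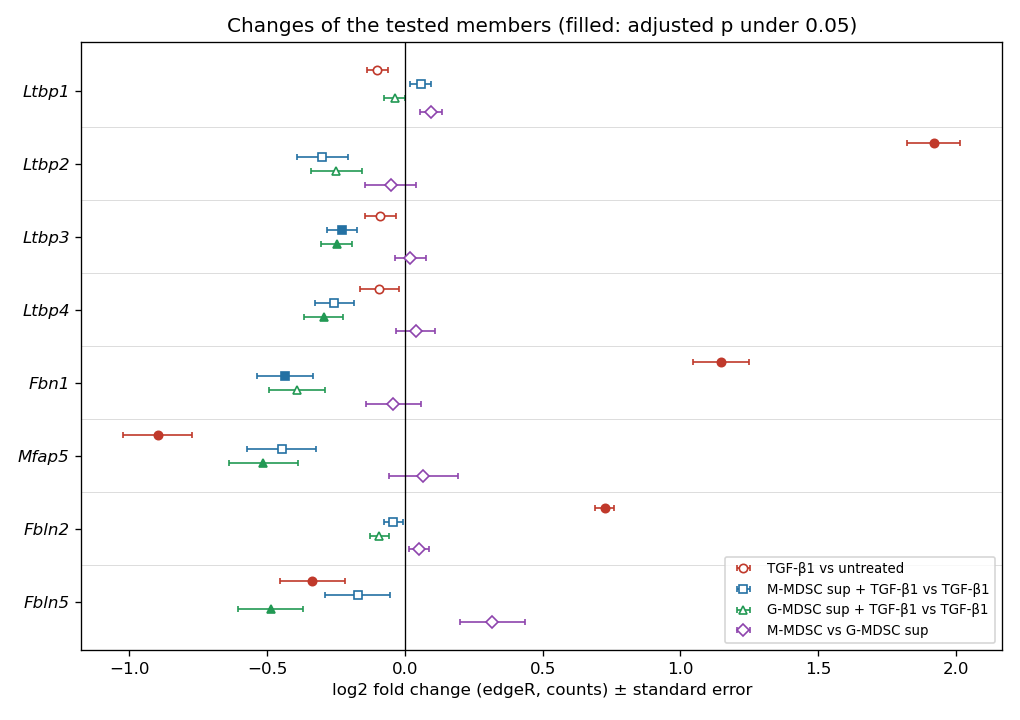
Log2 fold change of the 8 tested members (edgeR on counts, error bars: standard error). Comparisons are TGF-β1 against untreated, each supernatant with TGF-β1 against TGF-β1 alone, and M-MDSC against G-MDSC supernatant. Filled symbols passed adjusted p under 0.05. Ltbp2 is at 1.92 and Mfap5 at -0.90 with TGF-β1. The values of each supernatant against TGF-β1 alone lie between -0.51 and 0.06, and those between the supernatants from -0.05 to 0.32.

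No member was called between the supernatants. Between M-MDSC and G-MDSC supernatant, 0 of 8 members were called by edgeR, with limma or with DESeq2, beside 0.125% of tested genes by edgeR, and 2 members had an unadjusted p under 0.05, beside 6.33% of tested genes. Fbln5 was higher with M-MDSC supernatant by 0.32 ± 0.118 on the log2 scale (unadjusted p = 0.0227, adjusted p = 0.690, edgeR), and by 0.158 without G-MDSC replicate 1, and Ltbp1 by 0.09 ± 0.038 (unadjusted p = 0.0318, adjusted p = 0.743, edgeR). The other 6 lay between -0.05 and 0.07 with standard errors of 0.035 to 0.125. Groups did not overlap for Ltbp1, Fbln2 and Fbln5, 3 of 8 beside 12% of tested genes.

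The comparison with untreated MSCs shows where each gene ended. Ltbp2, Fbn1 and Fbln2, the genes that TGF-β1 raised, were still higher than in untreated cells with either supernatant, by 1.62, 0.71 and 0.68 on the log2 scale with M-MDSC and by 1.67, 0.75 and 0.63 with G-MDSC supernatant (adjusted p at most 0.000268, edgeR). As a description of the mean FPKM, the distance below TGF-β1 alone was 46.8% (M-MDSC) and 42.3% (G-MDSC) of the TGF-β1 rise for Fbn1, 24.2% and 19.7% for Ltbp2, and 3.74% and 12.3% for Fbln2, and of these 6 differences that of Fbn1 with M-MDSC supernatant passed the test. Mfap5 and Fbln5, which TGF-β1 lowered, had means further below the untreated level, and those means were 61.6% and 63.2% below it for Mfap5 and 31.3% and 44.7% for Fbln5. Ltbp3 and Ltbp4, not called with TGF-β1 alone, were called lower than in untreated MSCs with either supernatant, at -0.32 and -0.35 with M-MDSC (adjusted p = 0.00108 and 0.00300, edgeR) and -0.34 and -0.39 with G-MDSC supernatant (adjusted p = 0.000726 and 0.00156, edgeR).

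Counted together, 7 of 8 members differed from untreated with M-MDSC supernatant, 3 higher and 4 lower, beside 35.2% of tested genes (16.4% higher and 18.9% lower), and 8 of 8 with G-MDSC supernatant, 3 higher and 5 lower, beside 34.8% (16.4% and 18.4%). Under the study's rule 2 members, Ltbp2 higher and Mfap5 lower, were called with either supernatant, beside 6.98% of tested genes for M-MDSC and 6.8% for G-MDSC supernatant. The additional gene with G-MDSC supernatant was Ltbp1, at -0.14 ± 0.038 (adjusted p = 0.0172, edgeR), a call that 6 of 21 alternatives did not make (adjusted p up to 0.072), against -0.04 ± 0.038 with M-MDSC supernatant (adjusted p = 0.438, edgeR). These comparisons share their untreated libraries with that of TGF-β1 against untreated, and their supernatant libraries with the supernatant comparisons, and are not independent of them.

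The genes that build and crosslink elastic fibres also moved in both directions with TGF-β1. Of a list of 22, 15 were tested, 5 rose, 6 fell and 4 did not pass, beside 16.1% of all tested genes that rose and 17.9% that fell, with a median log2 fold change of -0.18, beside 0.00048 for all tested genes. The genes that rose included Adamtsl3 (0.661 to 2.77 FPKM, log2 fold change 2.12 ± 0.150) and Adamts6 (2.19 to 6.74 FPKM, 1.68 ± 0.237). Both are of the ADAMTS family, whose members include binders of fibrillin. Adamtsl3 passed the FPKM minimum only where it was high, so it is given as a description, though it is among the 5 counted. The other genes that rose were lysyl oxidases, which crosslink collagen and elastin: Loxl2 (11.1 to 25.3 FPKM; 1.24 ± 0.059), Lox (252 to 560.2 FPKM; 1.21 ± 0.038) and Loxl1 (18.4 to 27.7 FPKM; 0.65 ± 0.067). The adjusted p of Adamts6 and of these lysyl oxidases was at most 0.000253 (edgeR). The genes that fell were led by Efemp1, which encodes fibulin-3, from 15.4 to 1.33 FPKM (-3.47 ± 0.174, adjusted p = 9.95e-08, edgeR), and Emilin2, of the elastin microfibril interfacers, from 5.76 to 1.09 FPKM (-2.33 ± 0.110, adjusted p = 6.75e-08, edgeR). Fbln1 (-0.73 ± 0.062), Loxl4 (-0.62 ± 0.069) and Adamtsl5 (-0.47 ± 0.123) fell less.

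Of the 15 tested genes of that list 0 rose and 2 fell with M-MDSC supernatant, beside 4.78% of all tested genes called and 1.95% called lower: Loxl2 (-0.58 ± 0.059, adjusted p = 0.000139, edgeR) and Lox (-0.29 ± 0.037, adjusted p = 0.000989, edgeR). With G-MDSC supernatant 3 fell, beside 5.56% called and 2.46% called lower: Loxl2 (-0.67 ± 0.059), Lox (-0.27 ± 0.037) and, near the threshold, Loxl1 (-0.27 ± 0.067, adjusted p = 0.0420, edgeR), and 15 of 21 alternatives called 2 genes of the list. Of the other lysyl oxidases, Loxl1 with M-MDSC (-0.21, adjusted p = 0.125, edgeR) and Loxl3 (0.02 and -0.10) and Loxl4 (0.01 and -0.15) with M-MDSC and G-MDSC supernatant were not called. The list's medians were -0.022 and -0.15, beside -0.013 and -0.014 for all tested genes.

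Genes of TGF-β latency and its release showed another pattern. Of a list of 17 (ligands, anchors, integrins and proteases), 12 were tested and all 12 rose with TGF-β1, beside 16.1% of tested genes (13 rose and 1 fell with filterByExpr or with no filter, which test more of the list), with a median log2 fold change of 0.56. Tgfb1 went from 3.61 to 13.7 FPKM (1.98 ± 0.133), Tgfb3 from 10.2 to 16.0 FPKM (0.71 ± 0.078), and Bmp1, a protease that can cleave LTBP-1, from 20.5 to 51.7 FPKM (1.39 ± 0.059). Itgav (4.97 to 7.72 FPKM; 0.69 ± 0.134) and Itgb1 (254 to 385 FPKM; 0.66 ± 0.032), subunits of integrins that bind the latent complex, rose as well. The adjusted p of these 5 was at most 0.00224 (edgeR). The integrin subunits of the list that were not tested had lower means with TGF-β1. These were Itgb6, at 0.258 and 0.0512 FPKM with no overlap between libraries, and Itgb8, at 0.304 and 0.223 FPKM with overlap. Under each supernatant 1 of the 12 was called, beside 4.78% (M-MDSC) and 5.56% (G-MDSC) of tested genes. This was Thbs1, encoding the TGF-β activator thrombospondin-1, which fell by 0.25 ± 0.056 with M-MDSC (adjusted p = 0.0279, edgeR) and by 0.37 ± 0.057 with G-MDSC supernatant (adjusted p = 0.00278, edgeR). With M-MDSC supernatant 0 genes of the list were called by limma, without TGF-β1 replicate 1 or 2, or without M-MDSC replicate 2 or 3.

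Of 7 genes for proteases that degrade elastin, 2 were tested. Mmp9 had means of 0.214 FPKM in untreated MSCs and 1.13 FPKM with TGF-β1, 2.43 ± 0.251 apart on the log2 scale. It reached 2.33 FPKM with G-MDSC supernatant, 1.01 ± 0.233 above TGF-β1 alone on the log2 scale (adjusted p = 0.0306, edgeR). Mmp9 passed the FPKM minimum only outside the untreated group, so its change with TGF-β1 is given as a description. Its call with G-MDSC supernatant was lost when any 1 of the TGF-β1 or G-MDSC libraries was left out. Between the supernatants, 0 of the 15, 12 and 2 tested genes of the assembly, latency and elastase lists were called by edgeR, beside 0.125% of tested genes, and 2, 0 and 1 had an unadjusted p under 0.05, beside 6.33%. DESeq2 and limma on log2(FPKM + 1) each called 1 elastase gene there.

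**Figure D4:**
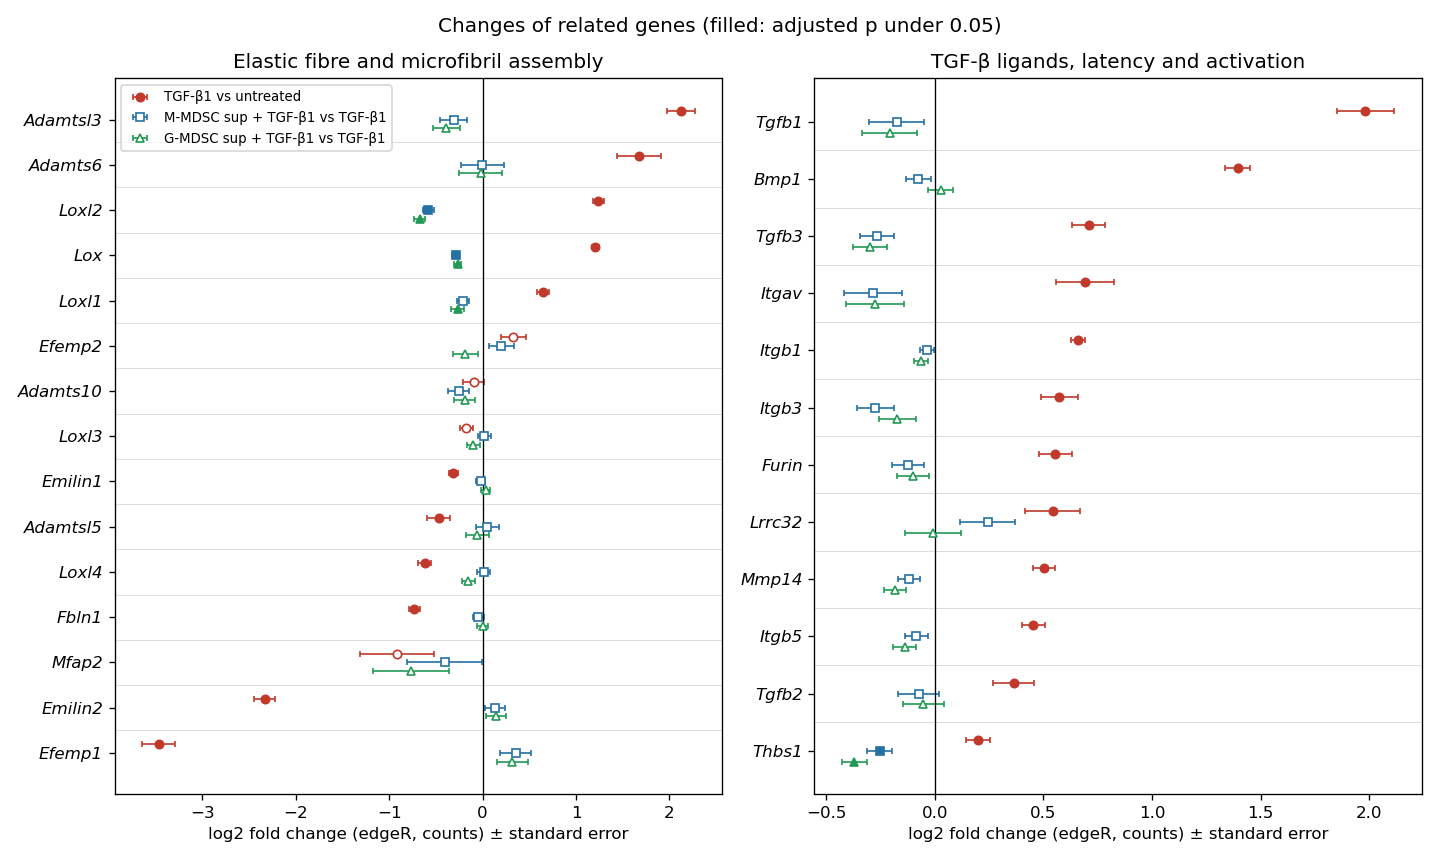
Log2 fold change (edgeR on counts, error bars: standard error) of the tested genes of the elastic fibre assembly list (left, 15 genes) and the TGF-β latency list (right, 12 genes). Comparisons are TGF-β1 against untreated and each supernatant with TGF-β1 against TGF-β1 alone. Filled symbols passed adjusted p under 0.05. All 12 latency genes lie above 0 with TGF-β1, while the assembly genes run from -3.47 to 2.12. The value of 2.12 is that of Adamtsl3, which passed the FPKM minimum only where it was high.

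Over the 12 libraries, tested genes outside the 10 with a pattern most like that of Ltbp2 included Tnc and Enpp1, with Pearson r on log2(FPKM + 1) of 0.996 and 0.994. Tnc, which encodes the matrix glycoprotein tenascin-C, had means of 59.1, 285, 217 and 228 FPKM in untreated, TGF-β1, M-MDSC and G-MDSC supernatant libraries. The 12 points form groups set by the treatments, and r is given as a description. Likeness to Eln was not computed, since its counts were too few.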

How the data were processed

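Poly(A) RNA of 12 libraries (4 groups of 3) was sequenced as paired ends. Per the submitters' processing notes and methods, the authors trimmed with cutadapt 1.9, aligned to GRCm38 with HISAT2 2.0.4 and assembled with StringTie 1.3.4d. The deposited table holds raw counts per gene and library (the counting tool and its strand setting are not given in the sources used here). It also holds FPKM that the authors computed, with a count of 0 written as 0.0001, read here as 0. Of nonzero counts up to 12, 44.3% were multiples of 4.

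Genes that reached an FPKM of 1 in 3 or more of the 12 libraries (12016 of 55401) were tested on counts with edgeR 4.0.16 in R 4.3.3 (TMM factors 0.978 to 1.03, quasi-likelihood F test, all libraries in 1 fit, Benjamini-Hochberg adjustment over all tested genes, called under 0.05). The SE of a log2 fold change is its size divided by the root of F. Alternatives were RLE scaling, DESeq2 1.42.0, limma 3.58.1 on log2(FPKM + 1) and log2(FPKM + 0.1), no filter, filterByExpr, only the 2 groups compared, counts divided by 4, a replicate block and leaving out each library. Scripts were tested on simulated data. The members and lists were chosen with earlier results of these data known. Named genes were the 10 members, up to 5 called genes per list and direction for TGF-β1 (3 for supernatants), the 3 genes most like Ltbp2, and Acta2. Some results under these rules are not reported here. Alternatives for the counts of the 3 lists were added after seeing the data. SD is over 3 libraries.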

Additional observations from a re-analysis of the deposited data

How the results depend on the processing

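For each of the 8 tested members and 6 comparisons, the 9 alternatives other than leaving out a library kept direction and side of the threshold in 396 of the resulting values, moved 28 below and 8 past the threshold, and reversed none. Leaving out 1 library kept 500, moved 63 below and 5 past the threshold, and reversed 8. Between the supernatants it moved Fbn1 from -0.115 to 0.048, Ltbp2 from -0.134 to 0.016, Ltbp3 from -0.023 to 0.068, Ltbp4 from -0.012 to 0.088 and Mfap5 from -0.036 to 0.170 on the log2 scale. The 8 reversals were all between the supernatants, in values near 0 that no fit called: without G-MDSC replicate 3, Fbn1 0.048, Ltbp2 0.016 and Mfap5 -0.036; without M-MDSC replicate 3, Fbn1 0.022 and Mfap5 -0.019; without G-MDSC replicate 1, Ltbp3 -0.0088 and Ltbp4 -0.012; and without M-MDSC replicate 1, Ltbp3 -0.023.

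Leaving out 1 library gave 4 to 6 members called for TGF-β1 against untreated, 0 to 2 for M-MDSC and 0 to 4 for G-MDSC supernatant against TGF-β1, 0 to 0 between the supernatants, and 7 to 7 and 7 to 8 for M-MDSC and G-MDSC supernatant against untreated. Of the lists it gave, for TGF-β1 against untreated, 11 to 12 assembly, 10 to 12 latency and 1 to 1 elastase genes. For M-MDSC supernatant it gave 2 to 3, 0 to 2 and 0 to 0, for G-MDSC supernatant 2 to 3, 1 to 3 and 0 to 1, and between the supernatants 0 to 0, 0 to 0 and 0 to 1.

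For M-MDSC supernatant against TGF-β1 (2 members called), DESeq2 called 5, RLE scaling 1, filterByExpr 1, limma 0 with a pseudocount of 0.1 and 1 with 1, no filter 0, only the 2 groups 1 and the study's rule 0. For G-MDSC supernatant (4 called), limma called 2 with either pseudocount, no filter 1, only the 2 groups 0 and the study's rule 0. Against untreated the study's rule called 2 members for TGF-β1 and 2 for each supernatant. Latency genes called were 3 with DESeq2 for G-MDSC supernatant, and for M-MDSC supernatant 2 with filterByExpr, 0 with limma and 2 with only the 2 groups. Elastase genes called were 2 with filterByExpr and 2 with no filter for G-MDSC, 1 and 1 for M-MDSC supernatant, and 1 with DESeq2 and 1 with limma (pseudocount 1) between the supernatants. The cause was not tested.

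Same-numbered libraries of different groups had a mean residual correlation of -0.0038 over 18 pairs, with values from -0.156 to 0.0778. Each group was centred first, which largely fixes the mean of the 36 other pairs, 0.0020, so it is no separate baseline. Whether replicate numbers pair the libraries is not settled by these values. With the replicate number as a block, 1 member was called for M-MDSC and 1 for G-MDSC supernatant, and 0 elastase genes for G-MDSC supernatant. Eln and Fbn2 had at most 47 and 4 counts in a library, while the other members had at least 589.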

Other observations

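Efemp2, which encodes fibulin-4 and was chosen after its values were seen, had 65.9, 61.4 and 56.9 FPKM with M-MDSC and 45.8, 50.2 and 45.4 FPKM with G-MDSC supernatant. The groups do not overlap, as is so for 12% of tested genes, and both overlap the TGF-β1 libraries (61, 49.5 and 47.3 FPKM). The log2 difference was 0.39 ± 0.134 (SE; adjusted p = 0.636, edgeR), and it was not called.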
